A study of Mus musculus with 9 samples.

Results

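Inhibitory receptors that T cells share with myeloid cells, and the ligands of some of them, are described here across CD8+ T cell libraries from a mouse melanoma. The 8 genes were chosen by name, and all 8 were found among the 23366 gene symbols of the expression table. They are 6 receptors, 4632428N05Rik (VISTA), Lair1, Pirb, Lilrb4, Cd200r1 and Sirpa, and 2 ligands, Cd47, which binds SIRPα, and Cd200, which binds CD200R1. Pirb stands in the table under its synonym Lilrb3 and is called Lilrb3 (PIR-B) below. All 8 passed the filter of a mean of at least 1 FPKM over all libraries, so each was tested. FPKM is a level scaled to sequencing depth and to transcript length, so that levels of different genes can be set side by side.

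RNA was sequenced from 4 IL27ra KO and 5 WT bulk libraries of CD8+ T cells isolated from B16F10 tumours, a transplanted melanoma line, grown in C57BL/6 mice that either lacked the interleukin 27 receptor chain IL27ra or were wild type. The comparison asks which RNA levels of these libraries, from T cells or from other cells in them, differ between the genotypes. The labels give no allele for the deletion, no age, and no statement of whether only T cells lacked the receptor. They also leave unsaid whether every library came from a separate animal, so a p-value here reflects the variation among libraries alone, part of which may be technical. Both groups share tumour line, strain and tissue.

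These receptors restrain the cells that carry them. LAIR-1 binds collagens, PIR-B and gp49B (Lilrb4) are members of the leukocyte immunoglobulin-like receptor family, and SIRPα on a phagocyte binds CD47 on a neighbouring cell, which protects that cell from being engulfed. All of these carry ITIM motifs in their cytoplasmic tails, tyrosine motifs that recruit phosphatases such as SHP-1 (Ptpn6) and SHP-2 (Ptpn11) once Src-family kinases have phosphorylated them. CD200R1 has no ITIM and signals through the adaptors Dok2 and Dok1. VISTA, a relative of the B7 ligands, is carried by myeloid cells and by resting T cells, and has no classical ITIM either. PIR-B and SIRPα are known mainly from myeloid cells, whereas CD47 is made by nearly every cell.

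Il27ra, the targeted gene, had 4.09, 6.50, 5.62 and 7.80 FPKM in IL27ra KO replicates 1 to 4. It had 25.7, 15.2, 14.4 and 15.8 FPKM in the libraries labelled WT replicates 1, 3, 4 and 5, and 5.14 FPKM in the library labelled WT replicate 2, which is within the range of the IL27ra KO libraries. IL27ra KO minus WT was -1.10 log2 units and did not pass (limma, adjusted p = 0.0996), and without the library labelled WT replicate 2 it was -1.42 and passed (adjusted p = 0.00352). The spacing of low values implied 2510000 to 3860000 fragments per IL27ra KO library and 1730000 to 4080000 per WT library. The values had been scaled between libraries by TMM, so these are scaled sizes and not numbers of sequenced fragments.

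The libraries also differed in markers of macrophages. Averaged over 19 macrophage markers, the log2 level reached 5.16, 4.90, 5.37 and 3.73 in IL27ra KO replicates 1 to 4, against 1.23, 2.92, 1.29, 2.03 and 2.58 in WT replicates 1 to 5. The 2 groups did not overlap, the difference was 2.78 log2 units (two-sided exact permutation p = 0.0159, the smallest that 4 against 5 libraries allow), and none of the 19 markers was at 0 in every library. Summed over the markers this was 540 to 1860 FPKM in IL27ra KO and 85.4 to 449 FPKM in WT. Averaged over 15 CD8 T cell markers, it reached 4.94, 5.39, 5.21 and 6.21 in IL27ra KO replicates 1 to 4 and 5.92 to 6.53 in WT, a difference of -0.70 (two-sided exact permutation p = 0.0794). IL27ra KO replicate 4 had the least macrophage and the most T cell RNA of its group. In bulk libraries, fewer cells of a type and less RNA per cell cannot be told apart.

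Of the 6 receptors, 4 were higher in IL27ra KO, and 0 members were lower (limma across all genes tested, adjusted p under 0.05). At an unadjusted p under 0.05, 5 members were higher and 2 lower, while 1563 of all 10374 genes were under that p in either direction. Lilrb3 (PIR-B), Sirpa, Lair1 and 4632428N05Rik rose, while Lilrb4, Cd200r1 and both ligands did not pass. Of all 10374 genes tested, 4.24% passed, 3.13% as higher and 1.11% as lower, and the higher and lower calls numbered 325 and 115. With quantile normalization those calls were 291 and 167, and with scaling to the CD8 T cell markers, which moved the median change of all genes from 0.02 to 0.61, they were 1194 and 52. The 4 receptors passed as higher under both of these scalings. When the fit included the level of the macrophage markers, 0 members passed (limma), in a fit where 6 of all genes passed. At an unadjusted p under 0.05, 1 member was higher and 2 lower in it, beside 1300 of all 10374 genes in either direction. The differences in that fit were 1.25 for Sirpa (adjusted p = 0.531), 0.78 for Lair1 (adjusted p = 0.636) and -0.41 for Lilrb3 (adjusted p = 0.760). Macrophage levels did not overlap between the genotypes, so that fit can hardly separate genotype from macrophage level. Il27ra itself differed by 0.59 in it. With the CD8 T cell marker level in the fit instead, 0 members passed, in a fit where 25 of all genes passed. There, Sirpa differed by 1.08 (adjusted p = 0.254). At an unadjusted p under 0.05, 4 members were higher and 0 lower in it, beside 764 of all 10374 genes in either direction.

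**Figure D1:**
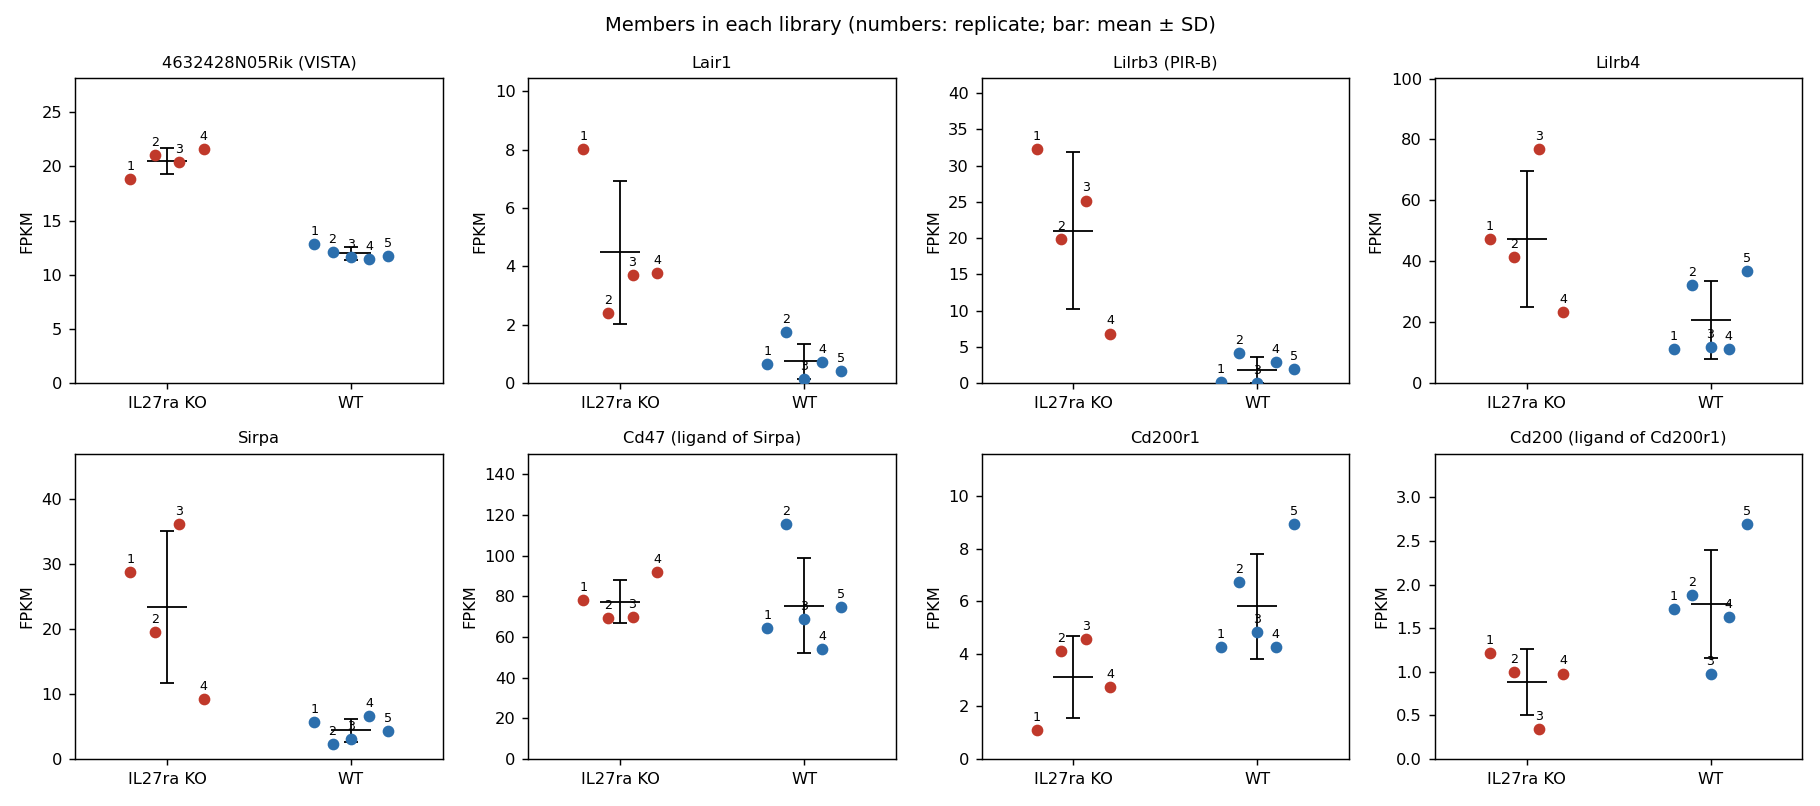
FPKM of the 8 members in each library, IL27ra KO left and WT right, numbered by replicate, with the group mean and SD (n = 4 and n = 5). The IL27ra KO libraries lie above every WT library for 4632428N05Rik, Lair1, Lilrb3 and Sirpa, and the groups overlap for the other 4 genes.

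Lilrb3 (PIR-B), the receptor for MHC class I and other ligands that dampens macrophages, neutrophils and B cells, showed the largest difference of the 8 members. It had 32.3, 19.8, 25.2 and 6.85 FPKM in IL27ra KO replicates 1 to 4. It had 0.13, 4.10, 0.00, 2.87 and 1.99 FPKM in WT replicates 1 to 5. The groups did not overlap, which held for 6.73% of all genes tested, and 4.26% of all genes had IL27ra KO above WT in this way. The mean was 21.0 ± 10.8 FPKM in IL27ra KO (SD, n = 4) and 1.82 ± 1.77 FPKM in WT (SD, n = 5), and the difference was 3.07 log2 units (SE 0.51; limma, adjusted p = 0.00358).

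Within each group the Lilrb3 values were high and low in much the same libraries as the macrophage markers. The lowest IL27ra KO value came from replicate 4, the library with the least macrophage RNA of its group, and the 2 lowest WT values came from replicates 1 and 3, whose macrophage levels were 1.23 and 1.29. The library labelled WT replicate 2 had the highest value and the highest macrophage level of the WT group. Of the 50-base windows of the longest Pirb transcript in GENCODE M21, 37.3% also occur in transcripts of other genes, so reads may have been split among them. Summed with its relatives, Lilrb3 had 50.65, 33.3, 43.8 and 8.71 FPKM in IL27ra KO replicates 1 to 4, against 0.00 to 4.44 FPKM in WT, and the difference was 3.37 (adjusted p = 0.00384).

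Lair1, the collagen receptor of most leukocytes, was a low gene that rose. Its levels were 8.03, 2.42, 3.70 and 3.77 FPKM in IL27ra KO replicates 1 to 4, against 0.66, 1.76, 0.16, 0.73 and 0.41 FPKM in WT replicates 1 to 5. The groups did not overlap, and the closest libraries were IL27ra KO replicate 2 and the library labelled WT replicate 2. The mean was 4.48 ± 2.45 FPKM in IL27ra KO (SD, n = 4) and 0.744 ± 0.611 FPKM in WT (SD, n = 5), a difference of 1.62 log2 units (SE 0.31; limma, adjusted p = 0.00768). The log2 scale with 1 FPKM added understates the change of so low a gene: with 0.1 FPKM added the difference was 2.60, and with 5 FPKM added 0.70, and it passed with both. Its WT mean was under the filter of 1 FPKM, and with no filter it passed too (adjusted p = 0.0297). Unlike Lilrb3, Lair1 was not lowest in IL27ra KO replicate 4. Its replicate 4 value equalled that of replicate 3 to within 0.1 FPKM, although the macrophage levels of those libraries were 3.73 and 5.37.

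4632428N05Rik, the VISTA gene, rose by less than the other 3 receptors and with the narrowest spread. It had 18.9, 21.0, 20.4 and 21.6 FPKM in IL27ra KO replicates 1 to 4. It had 12.9, 12.1, 11.7, 11.4 and 11.8 FPKM in WT replicates 1 to 5. The groups were far apart compared with their own spread: 20.5 ± 1.19 FPKM in IL27ra KO (SD, n = 4) and 12.0 ± 0.558 FPKM in WT (SD, n = 5), a ratio of means of 1.71 and a difference of 0.73 log2 units (SE 0.16; limma, adjusted p = 0.0191). The call was lost without IL27ra KO replicate 1, 2 or 3 (adjusted p = 0.056, 0.0794 and 0.0855) and with the replicate number as a block (adjusted p = 0.146), while the difference stayed between 0.71 and 0.76 in those 4 fits.

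The VISTA values did not follow the macrophage markers within a group. IL27ra KO replicate 4, with the least macrophage RNA of its group, had the highest VISTA level, and replicate 1, with a macrophage level of 5.16, the lowest. In WT, summed macrophage FPKM ran from 85.4 to 449 while VISTA stayed between 11.4 and 12.9 FPKM. Set against WT alone, IL27ra KO replicate 4 was 0.80 log2 units higher, beside 0.73 for all 4 libraries; this single library, assumed to vary like the WT group, gave no call (limma, adjusted p = 0.999). When the fit included the level of the macrophage markers, the VISTA difference was 0.85 and did not pass (adjusted p = 0.369). VISTA lies within Cdh23, a cadherin gene on the opposite strand, and Cdh23 was at most 0.36 FPKM in any library.

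The promoters of 3 receptor genes that rose are shown to compare them for the core motif of PU.1 (Spi1), a factor that defines myeloid cells. Sirpa rose too, but the promoter set used held no entry for it. Each runs from 250 bases before to 50 bases after the transcription start in build GRCm38.p6, 5′ to 3′ on the gene's strand, with GAGGAA or its reverse complement TTCCTC in capitals.
Pirb, chr7:3720333-3720632, minus strand: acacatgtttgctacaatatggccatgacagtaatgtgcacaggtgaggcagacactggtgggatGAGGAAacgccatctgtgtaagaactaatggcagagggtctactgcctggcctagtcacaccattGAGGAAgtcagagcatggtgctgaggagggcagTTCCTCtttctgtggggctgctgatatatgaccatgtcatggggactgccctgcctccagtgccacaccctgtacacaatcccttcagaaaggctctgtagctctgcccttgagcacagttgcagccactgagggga
Lair1, chr7:4063155-4063454, minus strand: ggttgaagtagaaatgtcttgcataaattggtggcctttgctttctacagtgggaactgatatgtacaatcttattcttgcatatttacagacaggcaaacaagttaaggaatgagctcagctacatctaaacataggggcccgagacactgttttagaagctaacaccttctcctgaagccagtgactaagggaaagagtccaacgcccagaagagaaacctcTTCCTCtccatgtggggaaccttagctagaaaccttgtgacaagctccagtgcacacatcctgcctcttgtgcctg
Vsir (4632428N05Rik), chr10:60346601-60346900, plus strand: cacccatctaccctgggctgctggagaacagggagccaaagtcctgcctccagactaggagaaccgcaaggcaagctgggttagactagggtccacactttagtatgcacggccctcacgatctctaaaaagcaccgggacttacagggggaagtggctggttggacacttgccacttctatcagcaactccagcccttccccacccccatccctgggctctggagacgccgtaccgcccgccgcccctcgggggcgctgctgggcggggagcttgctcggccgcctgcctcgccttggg
The Pirb promoter held 3 matches, which begin 185, 120 and 87 bases before the start, the Lair1 promoter 1, which begins 26 bases before it, and the Vsir promoter 0. Of the ligands, which did not rise, the Cd200 promoter held 1 match, which begins 23 bases after the start, and the Cd47 promoter 0. Of 32544 promoters of the same length, 28.1% held at least 1 match. The STAT motif TTCNNNGAA, which reads alike on both strands and is held by 8.33% of the promoters, matched in 0 of the 3 shown and in neither ligand promoter. A match is a description of these letters and not a binding site. For PU.1 only GAGGAA and its reverse complement were searched, so 0 matches does not show that a promoter lacks other spellings. Sfpi1, the table's symbol for the PU.1 gene, was itself one of the macrophage markers and averaged 14.3 ± 7.24 FPKM in IL27ra KO (SD, n = 4) and 1.36 ± 1.64 FPKM in WT (SD, n = 5).

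Sirpa rose and its ligand Cd47 did not pass. Sirpa, the receptor through which macrophages read CD47, had 28.7, 19.5, 36.0 and 9.16 FPKM in IL27ra KO replicates 1 to 4. It had 5.72, 2.34, 3.03, 6.55 and 4.27 FPKM in WT replicates 1 to 5. The groups did not overlap, and the mean of 23.4 ± 11.6 FPKM in IL27ra KO (SD, n = 4) against 4.38 ± 1.77 FPKM in WT (SD, n = 5) gave a difference of 2.09 log2 units (SE 0.35; limma, adjusted p = 0.00390). Inside IL27ra KO the order of the 4 libraries was that of their macrophage levels. Inside WT it was not: the library labelled WT replicate 2 had the most macrophage RNA and the lowest Sirpa value. The mean log2 level of the melanoma markers was also lowest there, at 4.90. It was highest in WT replicate 4, at 6.79, where Sirpa was highest in WT. In IL27ra KO the melanoma level was lowest in replicate 4, at 5.80, but highest in replicate 1, at 7.01, while Sirpa was highest in replicate 3.

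The Sirpb1 genes, activating relatives of SIRPα that pair with the adaptor DAP12 (Tyrobp), rose as well. Sirpb1a had 10.9, 5.76, 7.63 and 2.16 FPKM in IL27ra KO replicates 1 to 4, against 0.00 to 0.69 FPKM in WT. Its difference was 2.48 log2 units (limma, adjusted p = 0.00123), and that of Sirpb1b was 2.25 (adjusted p = 0.00936). Their WT means were only 0.258 and 0.208 FPKM. Both genes reached the filter through IL27ra KO, so the filter favoured rises and these calls add no support to that of Sirpa. None of the 50-base windows of the longest Sirpa transcript occurs in a transcript of another gene, so the Sirpa value does not draw on shared windows of that length.

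Cd47, the signal against engulfment, was the most abundant member in both groups. It had 77.9, 69.3, 69.7 and 91.9 FPKM in IL27ra KO replicates 1 to 4, against 64.4, 115, 68.9, 53.9 and 74.5 FPKM in WT replicates 1 to 5. All IL27ra KO values lay inside the WT range. The difference was 0.07 log2 units with a 95% interval of -0.42 to 0.57 (limma, adjusted p = 0.929), and its sign changed without IL27ra KO replicate 4 or WT replicate 4. Scaled to the CD8 T cell markers it was 0.77 and did not pass (adjusted p = 0.0707). In both groups the highest Cd47 value came from the library with the highest T cell marker level, IL27ra KO replicate 4 at 6.21 and the library labelled WT replicate 2 at 6.53.

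Lilrb4, the gp49B receptor of mast cells, macrophages and activated T and NK cells, was abundant and did not pass. It had 47.4, 41.5, 76.9 and 23.3 FPKM in IL27ra KO replicates 1 to 4. It had 11.2, 32.3, 11.9, 11.2 and 36.9 FPKM in WT replicates 1 to 5. The groups overlapped through IL27ra KO replicate 4 on one side and WT replicates 2 and 5 on the other, and these 2 WT libraries had the highest macrophage levels of their group, 2.92 and 2.58. The difference was 1.23 log2 units with a 95% interval of 0.36 to 2.11 (limma, adjusted p = 0.130). It passed when libraries were weighted by quality (1.57, adjusted p = 0.0103) and with scaling to the CD8 T cell markers (1.92, adjusted p = 0.00718), and it turned to -1.36 with the macrophage covariate (adjusted p = 0.343).

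WT replicates 1 and 3, the libraries with the least macrophage RNA, still had 11.2 and 11.9 FPKM of Lilrb4, while Lilrb3 there was 0.13 and 0.00 FPKM. Gp49a, the near-identical activating relative beside it, had 45.3, 32.3, 51.1 and 34.2 FPKM in IL27ra KO replicates 1 to 4, against 13.1, 32.1, 12.8, 13.0 and 28.7 FPKM in WT replicates 1 to 5. Its groups just failed to overlap and it did not pass either (1.09 log2 units, limma, adjusted p = 0.0607). Of the 50-base windows of the longest Lilrb4a transcript, the current name of Lilrb4, 27.8% are shared with Lilr4b, the current name of Gp49a, so their separate values are uncertain. Summed, they differed by 1.20 log2 units (adjusted p = 0.0846).

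Cd200r1 and its ligand Cd200 had lower means in IL27ra KO and did not pass. Cd200r1, which restrains myeloid cells and is also made by T cells, had 1.10, 4.10, 4.58 and 2.74 FPKM in IL27ra KO replicates 1 to 4. It had 4.28, 6.72, 4.83, 4.28 and 8.93 FPKM in WT replicates 1 to 5. The groups overlapped only through IL27ra KO replicate 3, and the difference was -0.77 log2 units with a 95% interval of -1.40 to -0.14 (limma, adjusted p = 0.207). IL27ra KO replicate 1, with a macrophage level of 5.16, had the lowest value of all 9 libraries. IL27ra KO replicate 3 and WT replicates 5 and 2 had the highest values of their groups, with macrophage levels of 5.37, 2.58 and 2.92. Cd200r4, an activating relative, had 0.00 to 1.25 FPKM in IL27ra KO and 1.34 to 3.90 FPKM in WT. Its groups did not overlap, and its difference of -0.92 log2 units did not pass (adjusted p = 0.133).

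Cd200, the ligand, known from lymphocytes, endothelium and neurons, was near the limit of what these libraries resolve. It had 1.21, 1.00, 0.34 and 0.98 FPKM in IL27ra KO replicates 1 to 4, against 1.72, 1.88, 0.97, 1.63 and 2.69 FPKM in WT replicates 1 to 5. By the spacing of low values this was about 2 to 11 fragments per IL27ra KO library and 4 to 26 per WT library. Of the WT libraries, only replicate 3, at about 4 fragments of Cd200, overlapped with IL27ra KO. The difference was -0.56 log2 units with a 95% interval of -1.07 to -0.04 (limma, adjusted p = 0.280). Scaled to the CD8 T cell markers the differences of Cd200r1 and Cd200 were -0.22 and -0.17.

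The order of the members by level differed between the groups. In IL27ra KO the means ran from Cd47 at 77.2 FPKM through Lilrb4 at 47.3, Sirpa at 23.4, Lilrb3 at 21.0 and VISTA at 20.5 to Lair1 at 4.48, Cd200r1 at 3.13 and Cd200 at 0.882 FPKM. Of these neighbours only VISTA and Lair1 had ranges over the libraries that did not overlap. In WT the means ran from Cd47 at 75.4 FPKM through Lilrb4 at 20.7, VISTA at 12.0, Cd200r1 at 5.81, Sirpa at 4.38, Lilrb3 at 1.82 and Cd200 at 1.78 to Lair1 at 0.744 FPKM. There, Cd47 and Lilrb4 did not overlap, nor did VISTA and Cd200r1, and the other neighbours did. Lilrb3 and Sirpa, which stood beside VISTA in IL27ra KO, were thus below it in every WT library.

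How much of each gene came from T cells, from myeloid cells or from tumour cells was not measured directly. Each member can be set against the macrophage and CD8 T cell markers of the same library, and no level relative to the melanoma markers was taken. For every tested gene the macrophage marker level was subtracted from its log2 level, and the groups were compared again. The subtraction puts the same library differences into every gene, while the fit pools variances as if genes were independent. Intervals and p-values relative to a marker list can therefore understate the spread between libraries. Relative to the macrophage markers 98.2% of all genes tested were lower and 0.0193% higher (limma, adjusted p under 0.05), and 5 of the 8 members were lower and 0 higher. The other 3 did not pass. They were Lilrb3, which differed by 0.29 with a 95% interval of -0.88 to 1.46 (adjusted p = 0.631), Sirpa, by -0.69 with an interval of -1.83 to 0.45 (adjusted p = 0.239), and Lair1, by -1.16 with an interval of -2.33 to 0.01 (adjusted p = 0.0532). A call that is missed does not show that a gene moved with the markers, and Lair1 passed as lower without IL27ra KO replicate 4, without WT replicate 2 or 5, with 5 FPKM added and with the list's median in place of its mean (adjusted p = 0.00266 to 0.0366).

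The 5 members that fell relative to the macrophage markers were VISTA and Lilrb4 among the receptors, Cd200r1, and both ligands. VISTA differed by -2.05 (adjusted p = 0.000333), Lilrb4 by -1.55 (adjusted p = 0.00558), Cd47 by -2.71, Cd200 by -3.34 and Cd200r1 by -3.55 log2 units (adjusted p at most 1.83e-06 for the last 3). For Lilrb4 the call was lost with 5 FPKM added (-0.76, adjusted p = 0.0518).

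Relative to the CD8 T cell markers, 15.4% of all genes were higher and 0.318% lower, and 5 of the 8 members were higher and 0 lower. The differences were 3.77 for Lilrb3, 2.79 for Sirpa, 2.32 for Lair1, 1.94 for Lilrb4 and 1.43 for VISTA (limma, adjusted p at most 0.00458). Cd47 was 0.78 higher and did not pass (adjusted p = 0.0639), though it did without IL27ra KO replicate 4 (0.95, adjusted p = 0.00295) and with the list's median (0.90, adjusted p = 0.0350). Cd200 at 0.15 and Cd200r1 at -0.07, with 95% intervals of -0.68 to 0.97 and -0.84 to 0.70, did not pass either. VISTA minus the T cell marker level was -1.02 ± 0.48 in IL27ra KO (SD, n = 4) and -2.45 ± 0.24 in WT (SD, n = 5), and IL27ra KO replicate 4, at -1.71, lay above every WT library.

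**Figure D2:**
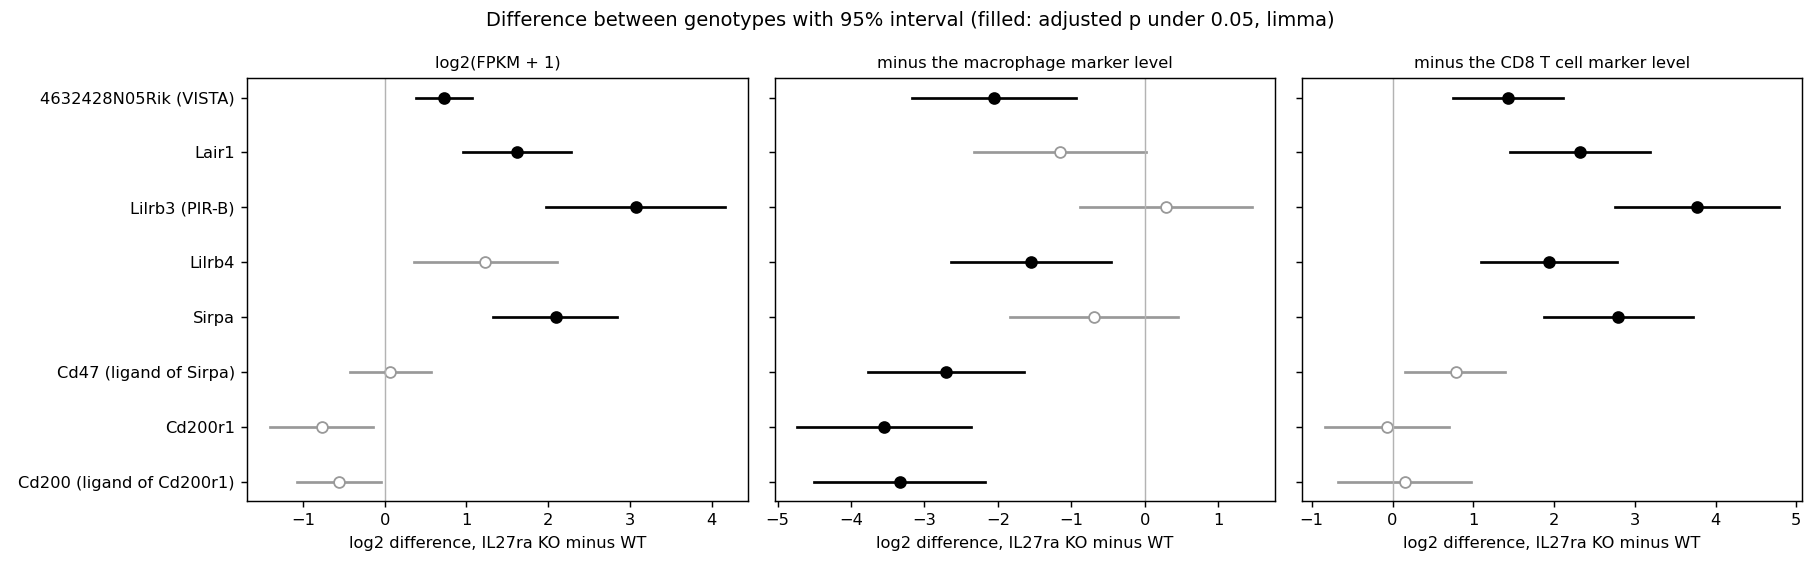
Differences between IL27ra KO and WT for the 8 members in log2 units with 95% intervals from limma, from left to right for log2(FPKM + 1), for that level minus the macrophage marker level and for that level minus the CD8 T cell marker level; filled points passed an adjusted p under 0.05. Lilrb3, Sirpa and Lair1 have intervals that reach 0 in the middle panel, and Cd200r1 and Cd200 lie near 0 in the right one.

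**Figure D3:**
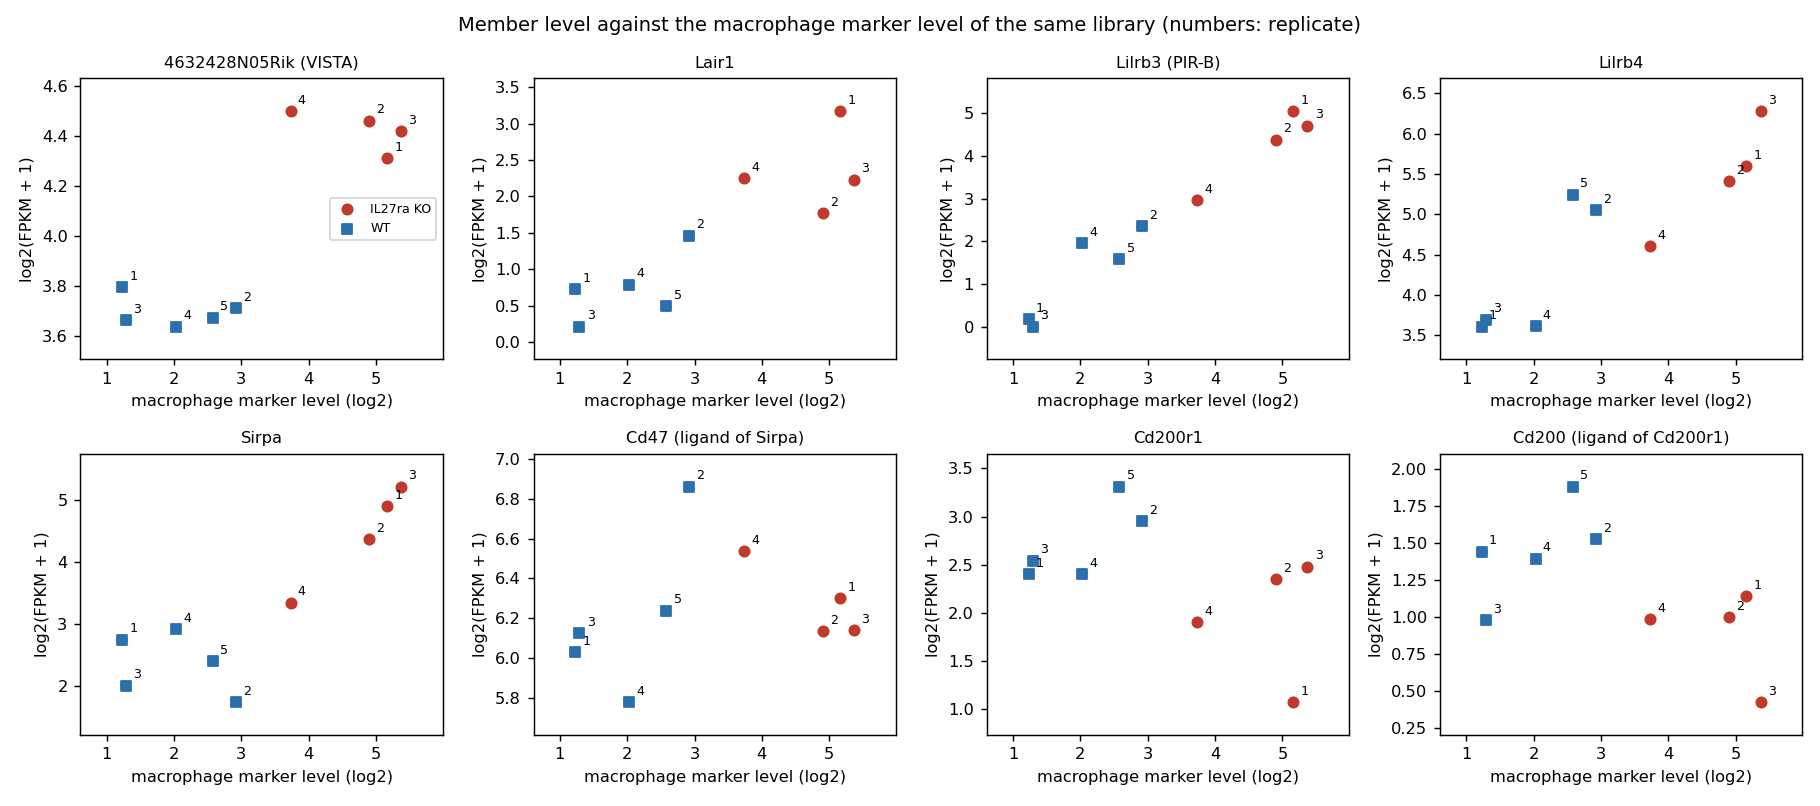
Level of each member, log2(FPKM + 1), against the mean log2 level of 19 macrophage markers in the same library, with IL27ra KO libraries as circles and WT libraries as squares, numbered by replicate; the vertical axes differ between panels and do not start at 0. Lilrb3 climbs along the axis in both groups, whereas the VISTA values form 2 flat groups, 18.9 to 21.6 FPKM in IL27ra KO and 11.4 to 12.9 FPKM in WT.

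Likeness inside the groups was measured as Pearson's r between deviations from the mean of the own genotype group over the 9 libraries, as a description with no test; the points share library depth and scaling. The median r with the 19 macrophage markers was 0.86 for Lilrb3 and 0.78 for Lilrb4, followed by 0.39 for Lair1, 0.35 for Cd200r1, 0.34 for Sirpa, 0.26 for Cd200 and Cd47 and -0.39 for VISTA. With the 15 CD8 T cell markers it was 0.65 for Cd47 and 0.52 for VISTA, between -0.25 and 0.32 for the other members except Sirpa, and -0.83 for Sirpa. With 9 melanoma markers it was 0.70 for Sirpa and -0.84 for Cd47. The median r with all genes was between -0.06 and 0.02 for every member.

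The genes most like Lilrb3 by this measure were Lgmn, a lysosomal protease (r = 0.977), Tgfbi (0.970), H2-DMa, which loads MHC class II (0.965), and Ly96, the partner of TLR4 (0.961), with Eif2b1 also at 0.961. For VISTA they were Cdt1, a replication licensing factor (0.975), Gm7367 (0.947), Gas5 (0.918), Srsf7 (0.915) and Rbm39 (0.901), the last 2 being splicing factors. For Sirpa they were Pls3 (0.985), Tenc1, Fgd4, Stx12 and Rtkn (0.947 to 0.967). With 9 libraries and 10374 genes such values are common: the 5 most alike genes of each of the 8 members all had r of at least 0.880.

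Relatives of Sirpa and Lilrb3 rose, and relatives of Cd200r1 did not pass. Of 9 tested close relatives of the members, 6 were higher and 0 lower with a median of 1.86 log2 units, beside 0.02 for all genes tested. The 6 had WT means of only 0.044 to 0.378 FPKM and reached the filter through IL27ra KO, so the filter favoured rises and the count and median support nothing. These were Sirpb1a, Sirpb1b, Gm5150 and Gm9733 next to Sirpa, and Pira2 and Lilra6 next to Lilrb3. Pira2, an activating relative of PIR-B, had 4.84, 4.78, 7.08 and 0.89 FPKM in IL27ra KO replicates 1 to 4, against 0.00 to 0.71 FPKM in WT (difference 1.97, limma, adjusted p = 0.0075). Gp49a, Cd200r2 and Cd200r4 did not pass, and 7 relatives were under the filter.

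Other ITIM receptors of myeloid cells moved in the same direction, 8 of 11 tested as higher and 0 lower (median 1.82). Fcgr2b, the inhibitory Fc receptor, had 96.3, 78.3, 137 and 30.3 FPKM in IL27ra KO replicates 1 to 4, against 3.11, 26.7, 2.66, 9.38 and 9.75 FPKM in WT replicates 1 to 5. Its groups did not overlap (difference 3.15, limma, adjusted p = 0.00454). The C-type lectins Clec4a3 (3.48), Clec4a2 (2.19) and Clec12a (1.82), and Pilra (1.86), Cd300lf (1.83), Milr1 (1.33) and Cd72 (1.28) passed as well (adjusted p = 0.00239 to 0.0463). Of the 8, Pilra, Clec12a and Cd300lf had WT means of 0.586, 0.448 and 0.442 FPKM and likewise reached the filter through IL27ra KO. Cd300a, Ceacam1 and Klra2 had differences of 0.97, 0.86 and 0.77 and did not pass.

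Proteins that carry the signals of these receptors rose in part. Of 17 tested, 5 were higher, among them the myeloid Src-family kinases Fgr (1.71) and Lyn (1.60) and the ITAM adaptors Tyrobp (3.01) and Fcer1g (2.42), and 0 were lower (limma; 3 genes of the 4 lists around the members were lower at an unadjusted p under 0.05). The phosphatase Ptpn6 had 39.4 ± 5.81 FPKM in IL27ra KO (SD, n = 4) and 35.7 ± 8.04 FPKM in WT (SD, n = 5), with a difference of 0.16 and a 95% interval of -0.29 to 0.60. Fyb and Dok2, adaptors of T cells and of other leukocytes, differed by -0.31 and 0.29 with 95% intervals of -0.76 to 0.14 and -0.16 to 0.75. The median over the 17 was 0.14.

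Of 11 tested binding partners of the members, 2 were higher, 0 lower and 9 did not pass (median -0.10). Thbs1, which encodes thrombospondin 1, a secreted ligand of CD47, had 12.5, 27.1, 60.1 and 10.9 FPKM in IL27ra KO replicates 1 to 4, against 0.10, 0.83, 0.98, 3.97 and 0.54 FPKM in WT replicates 1 to 5 (difference 3.53, limma, adjusted p = 0.00123). Fn1, which encodes fibronectin, a ligand of gp49B, had 19.1, 53.4, 70.6 and 18.0 FPKM in IL27ra KO replicates 1 to 4 and 2.02 to 5.16 FPKM in WT (difference 3.08, adjusted p = 0.000833). In IL27ra KO both genes were highest in replicate 3 and lowest in replicate 4, as were the macrophage markers. In WT the order was another one: the library labelled WT replicate 2, with the highest macrophage level, had the lowest Fn1 value, and Thbs1 was highest in replicate 4. WT replicates 2 and 4 had the lowest and highest melanoma marker levels of WT, 4.90 and 6.79. However, Fn1 was highest in WT replicate 3 and Thbs1 lowest in WT replicate 1. B2m, H2-K1 and H2-D1, the chains of MHC class I, which PIR-B binds, differed by -0.29, -0.16 and 0.01 and did not pass (adjusted p = 0.745 to 0.997). The collagens Col1a1, Col1a2, Col3a1, Col4a1 and Col17a1, ligands of LAIR-1, were at most 0.88 FPKM in any library and were not tested.

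**Figure D4:**
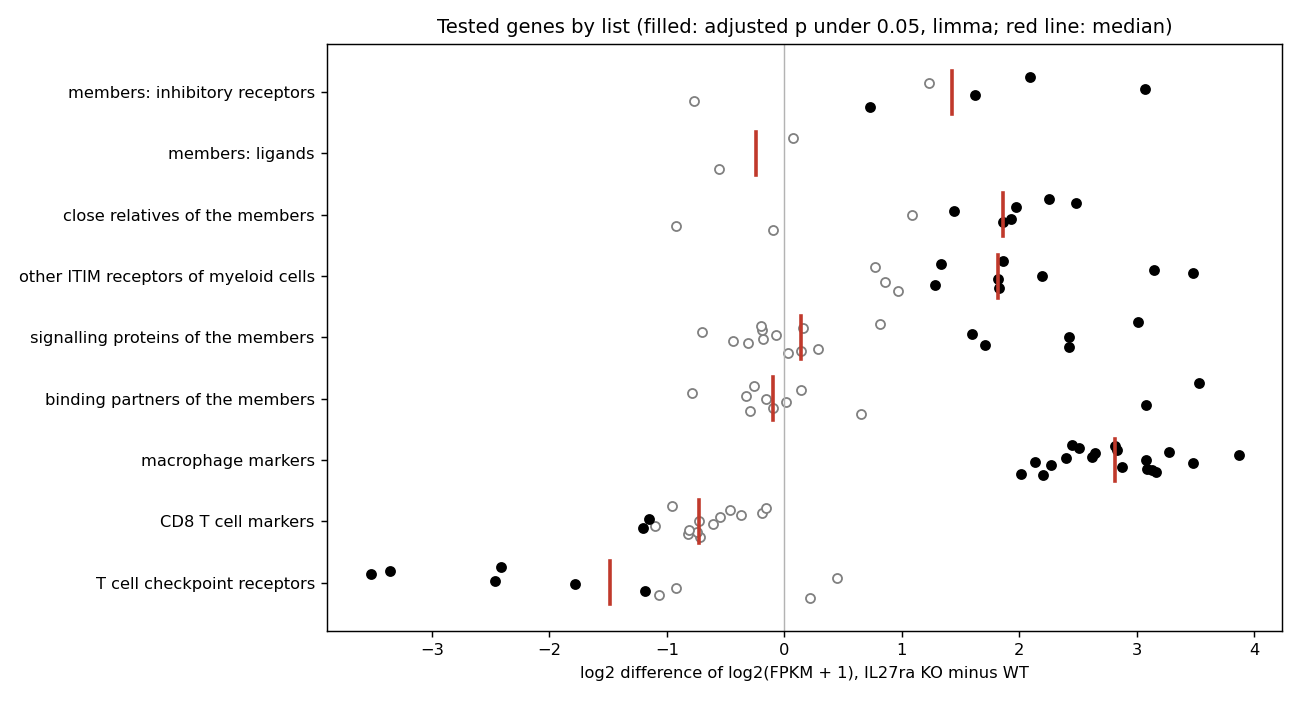
Differences between IL27ra KO and WT, in log2 units of log2(FPKM + 1), for the tested genes of each list; filled points passed an adjusted p under 0.05 in limma and red lines are medians. The receptors among the members, their relatives and other ITIM receptors of myeloid cells lie mostly right of 0, and T cell checkpoint receptors mostly left of it.

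Of 10 tested checkpoint receptors that mark T cells, 6 were lower and 0 higher, with a median of -1.49. The most abundant of them, Tigit, Pdcd1, Ctla4 and Lag3, differed by -2.41, -3.36, -1.78 and -3.52 log2 units (limma, adjusted p = 0.000472 to 0.00255). The part of macrophage or tumour RNA in the rises of Lilrb3, Sirpa, Lair1 and VISTA was not tested beyond the values given for each.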

How the data were processed

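RNA was sequenced from 9 bulk CD8+ T cell libraries, prepared with an adaptation of SMART-Seq 2, per the labels' protocols. Per the labels, RSEM gave the authors' FPKM, one value per gene, scaled between libraries by TMM. The submitters' processing notes name TopHat, RSEM, DESeq and build mm9, without roles or order. RSEM divides shared reads among similar genes, and TMM scaling rests on most genes being alike between libraries. The table had 0 columns of other samples and no pair of near-identical libraries (Spearman 0.890 to 0.956 across genes).

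The 10374 genes whose mean reached 1 FPKM were kept and taken to log2(FPKM + 1), and IL27ra KO minus WT was fitted across all of them with limma 3.58.1 in R 4.3.3 (lmFit, eBayes with trend). P-values were adjusted by Benjamini and Hochberg and called under 0.05. Levels of single lists were tested by exact permutation, two-sided, with 126 splits. Members relative to a marker list come from the same fit after the list level of each library had been subtracted. FPKM are not counts, so no count test was used. Depth, as a size after TMM scaling, was estimated from the spacing of low FPKM values in 2765 single-transcript genes with GENCODE M21 lengths. A whole multiple lay within 0.1 for 67.1% to 70.0% of low values, where an even spread gives 20%. On simulated data, changes of 1, 2 and 3 log2 units in 200 of 10374 genes were recovered for 41.5%, 95.0% and 99.5% in the comparison of IL27ra KO with WT.

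The members and all lists were chosen with earlier results of these data known. Named are all members, the list genes that passed (1 signalling gene is not reported here), up to 3 abundant list genes that did not, the genes of the marker and checkpoint lists with the highest levels, and the 5 genes most like a member; Sfpi1, Cdh23, Cd40lg, Itgb3, Ptk2b, Retnlg, Camp, the dendritic cell markers and the collagens are named outside that rule, after their values were seen. Spi1 and Pirb were matched to the table's Sfpi1 and Lilrb3 by RefSeq synonyms. Promoters are RefSeq's in GRCm38.p6. That build differs from mm9, so it was used only for names, neighbours, shared windows and promoters. Alternatives were other pseudocounts, filters, scalings, fits, covariates, a replicate block and leaving out each library; summing members with their relatives was added after the data had been seen. The replicate numbers did not pair the libraries.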

Additional observations from a re-analysis of the deposited data

How the results depend on the processing

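Of the members, 3 passed as higher at a filter of 5 FPKM, where Lair1 was not tested, and with the replicate block, and 3 to 4 when 1 library was left out. The count was 0 with the macrophage covariate and with the CD8 T cell covariate (limma). At an unadjusted p under 0.05, 1 member was higher and 2 lower with the first, and 4 higher and 0 lower with the second. Of all genes, 1300 and 764 were under that p in either direction. Signs turned with the macrophage covariate for Lilrb4 (-1.36), Lilrb3 (-0.41), Cd47 (-0.24) and Il27ra (0.59), and for Cd47 without IL27ra KO replicate 4 (-0.01) or WT replicate 4 (-0.04; range with 1 library left out -0.04 to 0.24). Relative to the CD8 T cell markers, Cd200 turned with 0.1 FPKM added (-0.26) and without IL27ra KO replicate 1 (range with 1 library left out -0.11 to 0.37), and Cd200r1 with 5 FPKM added (0.23), with the list's median (0.06) and in fits that left out 1 library (-0.32 to 0.21).

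The count of all genes passing, 440, was 219 at a filter of 5 FPKM, 1246 with scaling to the CD8 T cell markers, 974 with library weights, 6 and 25 with the macrophage and CD8 T cell covariates, 273 with the replicate block, 2 for IL27ra KO replicate 4 alone and 226 to 632 when 1 library was left out. List genes that passed as higher, 21, were 9 at the 5 FPKM filter and 0 with either covariate or for IL27ra KO replicate 4 alone, and those lower were 1 (Itgb3) with quantile normalization, 2 (Itgb3 and Ptk2b) with weights and 0 to 2 when 1 library was left out. Il27ra was -1.42 with weights (adjusted p = 0.00118), and ranged from -1.42 to -0.88 when 1 library was left out. The macrophage level difference kept its call, and that of the CD8 T cell markers was -0.96 without IL27ra KO replicate 4 (p = 0.0357, exact permutation; -0.96 to -0.54 with 1 library left out). The causes were not tested. Same-numbered libraries correlated by -0.15 to 0.00 in their deviations, so the numbers are no pairing; the block ended the call of 4632428N05Rik (0.72, adjusted p = 0.146). Depth limits Cd200 and Cd200r1.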

Other observations

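Markers of other cells that the sort could have let through did not pass, apart from dendritic cell markers and 1 CD4 T cell marker. Of 7 dendritic cell markers tested, 5 were higher (median 3.28 log2 units), with 405 to 1920 FPKM summed in IL27ra KO and 20.5 to 496 FPKM in WT. These 5, H2-Ab1, H2-Aa, Cd74, Cd209a and Itgax, are also known from macrophages. Itgax had 8.41, 4.22, 6.14 and 13.8 FPKM in IL27ra KO replicates 1 to 4. It was thus highest in replicate 4, which had the least macrophage RNA of its group and where the others were lowest in IL27ra KO. Of the markers more restricted to dendritic cells, Zbtb46 differed by -0.25 and did not pass (limma, adjusted p = 0.811). Flt3, Clec9a and Siglech were at most 0.43, 0.18 and 0.24 FPKM in any library and were not tested. Xcr1 and Batf3 were not tested either, with means of 0.712 and 1.31 FPKM in IL27ra KO and 0.95 and 0.068 FPKM in WT. The summed neutrophil markers were 10.3 to 15.7 FPKM in IL27ra KO and 7.41 to 31.4 FPKM in WT, with 0 of 3 tested passing, and Retnlg and Camp were listed at 0 in every library. B cell markers summed to at most 3.58 FPKM, NK cell markers to at most 13.4 FPKM and CD4 T cell markers to at most 6.50 FPKM, with 0 of 1, 0 of 2 and 1 of 2 tested passing, the last being Cd40lg. Stromal and endothelial markers had 0 of 2 passing. Melanoma markers summed to 709 to 1540 FPKM in IL27ra KO and 445 to 1450 FPKM in WT, with 0 of 9 passing and a median difference of 0.55.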
